A study of Apis mellifera with 36 samples.

Results

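Female honeybee (Apis mellifera) embryos at the end and at the start of the sampled period were compared, to find which transcripts of the day-old embryo were kept, which were lost and which were new late in embryogenesis. Members were chosen by their labels, out of 36 single embryos of both sexes and 3 ages. They were 6 worker (female) embryos of 72 h after egg laying, against 6 worker embryos of 24 h. The tested unit was the embryo, and all 12 were sequenced alone. Each group of 6 held 3 embryos of queen 1, labelled 1st batch, and 3 embryos of queen 2, labelled 2nd batch, so that queen and batch cannot be told apart. Worker eggs are fertilized and diploid. All embryos were laid by mated, untreated queens of managed colonies on egg-free frames, and worker and drone embryos came from different types of frame. Embryos of 1 queen are siblings. Queen was a term of the fits, so the p-values below measure the spread among embryos beyond the mean difference between the 2 queens. They do not measure how much queens vary.

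In insects the egg is filled by the mother with RNA and protein before it is laid. The early embryo lives on this supply, then breaks down many of the maternal RNAs and switches on its own genome, which first lays out the body axis and segments and later builds muscle, nerve, gut and cuticle. RNA of the 24 h embryo can be maternal or made by the embryo, and the measurements do not separate the sources. All levels below are shares of the counted RNA, given as CPM, counts scaled to a common library size with TMM factors, and RNA per embryo was not measured. Fewer cells of a type and less RNA per cell cannot be told apart in whole embryos.

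The total of the deposited gene counts was 5600680 to 7345814 in the 72 h embryos and 7122090 to 12566958 in the 24 h embryos. At least 1 count was found for 10848 to 11121 genes at 72 h and for 9424 to 9697 genes at 24 h, and the 10 genes with most counts held 5.85 to 9.23% of all counts at 72 h and 15.3 to 16.7% at 24 h. In every pair of embryos of a group the counts differed beyond sampling noise (chi-square per degree of freedom 9.9 to 57.9 at 72 h and 8.67 to 79.4 at 24 h), so no library was counted as a repeat of another. Among the 72 h embryos, replicate 15 of queen 1 stood farthest from the others: its root-mean-square log2 distance from their mean over the tested genes was 0.54, against 0.32 to 0.47 for the other 5. This embryo was also the nearest to the mean of the 48 h female embryos, at a distance of 1.24 against 1.3 to 1.37 for the others. Without it 3039 genes were called higher and 2268 lower, and results that rest on it are given below.

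Many genes of the female embryo changed their share of the counted RNA between these ages. Of 9010 genes with enough counts to test, 2921 were higher (32.4%) and 2311 were lower (25.6%) at 72 h than at 24 h, by edgeR's quasi-likelihood test with an adjusted p-value under 0.05 and a change of more than 2-fold. For 2788 genes (30.9%) the 95% interval of the change lay inside 2-fold, and these were counted as kept. The remaining 990 genes were unresolved. The change was measured relative to the other genes: the median log2 change of all tested genes was 0.10 with TMM scaling and 0.59 when embryos were scaled to their total counts. Scaling to total counts gave 3703 higher and 1595 lower genes, so the split between the directions depends on the scaling.

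The counts moved further than the number of genes. Genes called lower held 16.2 ± 0.647% of the counts at 72 h and 63.3 ± 0.976% at 24 h (SD, n = 6 each). Genes called higher held 43.5 ± 1.07% of the counts at 72 h and 6.43 ± 0.289% at 24 h. The kept genes held 31.9% at 72 h and 23.9% at 24 h on average. As the classes were formed from these same counts, the shares describe them and test nothing.

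**Figure D1:**
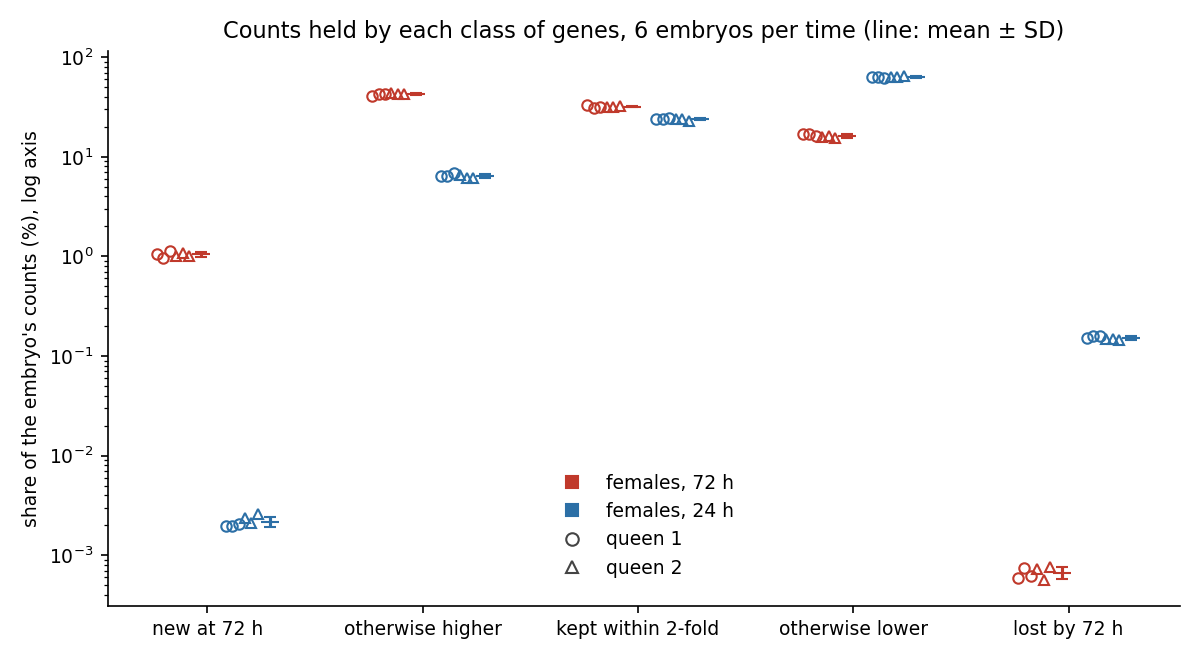
Share of an embryo's counts (percent, log axis) held by the genes of 5 classes, with 1 point per female embryo of 72 h (left of each pair) and 24 h (right), a circle for queen 1 and a triangle for queen 2, and the mean with its SD. The 72 h and 24 h points do not mix in any class, and genes lower at 72 h held 63.3% of the counts at 24 h. The classes were formed from these same counts.

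Embryos of either queen gave largely the same calls, from libraries of their own. In queen 1 alone 3074 of 9355 genes were higher (32.9%) and 2398 lower (25.6%), and in queen 2 alone 3110 of 9229 were higher (33.7%) and 2333 lower (25.3%). Of the genes called higher in queen 1, 88.9% were also called higher in queen 2, and of those called lower, 88.1% were also called lower. Across the 9071 genes tested in both queens the log2 changes correlated with r = 0.973, where genes are not independent replicates. A difference of the change between queens was called by edgeR's quasi-likelihood test for 0 of 9010 genes (0%), with 786 genes at an unadjusted p under 0.05.

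Genes counted as new at 72 h were the larger of the extreme classes. A gene was counted as new when it was called higher and had at most 3 counts in each 24 h embryo, although these libraries were the deeper ones. This held for 483 genes, of which 323 code for protein and 158 are annotated as long non-coding RNA (lncRNA). With so few counts at 24 h such a gene could pass the filter on low counts only through the 72 h embryos, so its presence in those embryos was set by the choice and is no finding. Of the 483, 152 had no count in any 24 h embryo. At 48 h, 342 of them already had more than 3 counts in every female embryo and 29 had not passed 3 counts in any. The number depends on the definition: 783 genes were new when a mean under 0.5 CPM at 24 h stood for absence, and 1708 without the filter.

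Among new genes with a described product the 5 with the highest mean RPKM (read counts per gene length and library size) were of unlike kinds. LOC102655523, a transmembrane protein 218-like gene on linkage group 11 (8735934 to 8736676, minus strand), had no count in any 24 h embryo. Its CPM at 72 h was 46.7 at the lowest, 62.3 at the median and 89.9 at the highest, at least 1150-fold above the floor of 3 counts over the 24 h group. Most of this level was already present at 48 h (57.9 ± 4.54 CPM). LOC409367, a calcyphosin-like gene on linkage group 8 (8378801 to 8381512, plus strand), had 88.8, 158 and 232 CPM (lowest, median, highest) at 72 h and no count at 24 h, at least 2770-fold higher. It was lower at 48 h (22.5 ± 5.1 CPM) than at 72 h. Calcyphosins are calcium-binding proteins.

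The other named members of this class included a chemosensory protein and a transporter. CSP6, one of the small secreted chemosensory proteins of insects (linkage group 1, 27117958 to 27119833, minus strand), had 31.2, 43.3 and 88.4 CPM at 72 h, against 0, 0.169 and 0.297 CPM at 24 h. LOC551405, named 4-nitrophenylphosphatase-like (linkage group 7, 2841397 to 2845941, minus strand), had 35.9, 124 and 142 CPM at 72 h and 2 counts in all at 24 h, a ratio of 2860 (95% counting interval 790 to 23600). At 48 h it was still nearly silent, at 0.147 ± 0.178 CPM, so its switch lay between 48 and 72 h. LOC409666, an ABC transporter of the G family (linkage group 15, 6320377 to 6356193, minus strand), ran the other way in time: it had 334 ± 45.9 CPM at 72 h, 931 ± 270 CPM at 48 h and 2 counts in all at 24 h. Its ratio of 72 h to 24 h was 8620 (counting interval 2390 to 71200).

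Of the new genes without a described product, LOC726629 was the highest protein-coding one by RPKM. It lies on linkage group 9 (7139115 to 7140759, minus strand) and had 239, 405 and 558 CPM at 72 h, 13.5 ± 3.57 CPM at 48 h and no count at 24 h, at least 6840-fold higher at 72 h. LOC102655343, an lncRNA on an unplaced scaffold, had 94.9, 120 and 154 CPM at 72 h and no count at 24 h, at least 2080-fold higher.

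**Figure D2:**
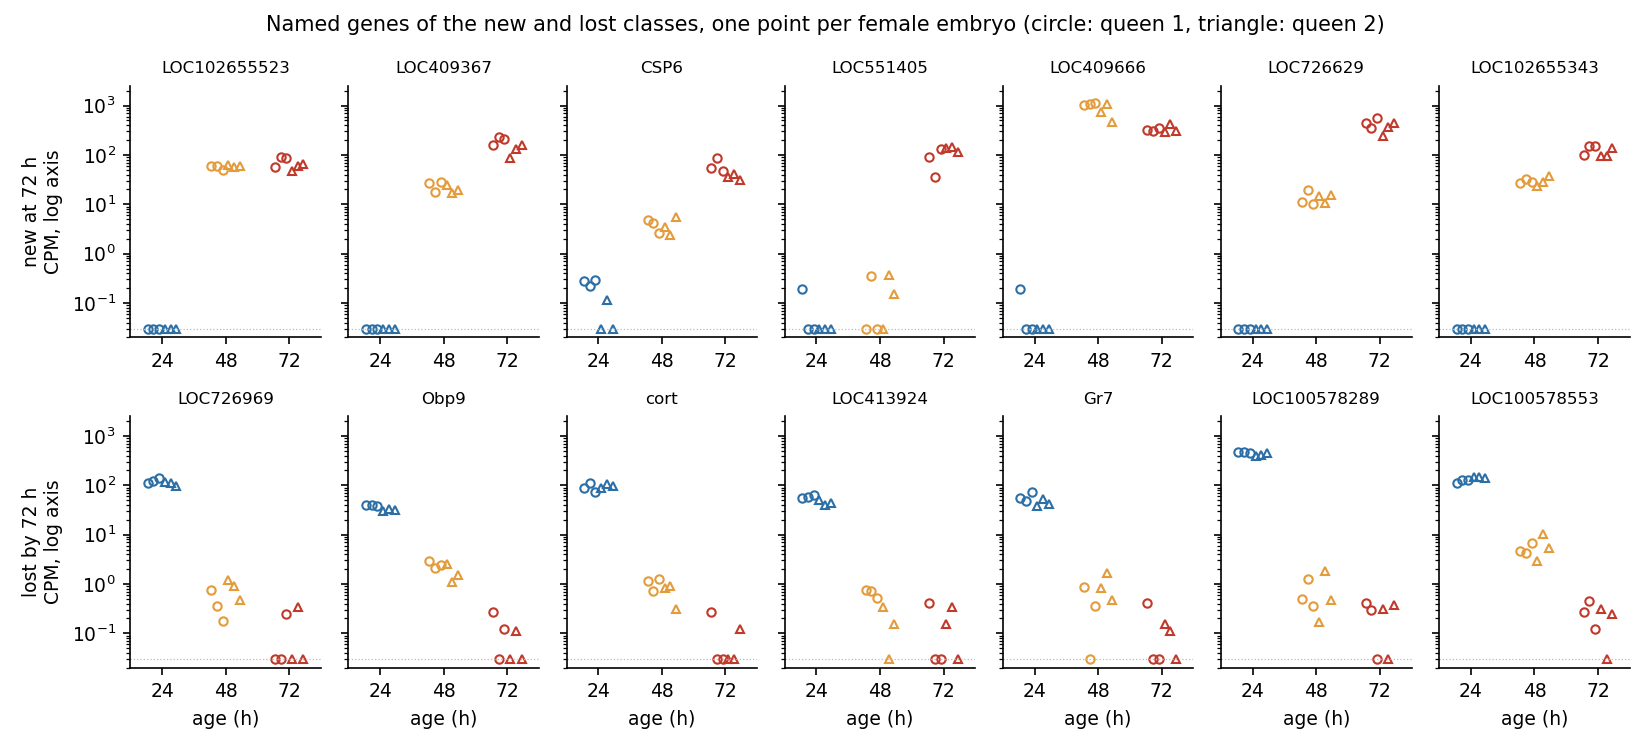
CPM (log axis, dotted line at 0) of the 14 named genes of the new class (top) and the lost class (bottom) in female embryos of 24, 48 and 72 h, 1 point per embryo. LOC409666 peaks at 48 h (931 CPM on average), LOC551405 is close to 0 until 72 h, and cort averages 0.861 CPM by 48 h.

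Loss to near zero was rarer. A gene was counted as lost when it was called lower and had at most 3 counts in each 72 h embryo: 59 genes, 35 coding and 24 lncRNA, with 5 at 0 counts in all 72 h embryos. With a mean under 0.5 CPM as the definition, 142 genes were lost. The 72 h libraries were the shallower ones, and 69 genes were lost when the embryos were thinned to equal totals. Of the 59 genes, 20 had at most 3 counts in every 48 h embryo already.

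The lost genes include a meiosis regulator. cort (cortex), which in Drosophila is a female germline activator of the anaphase-promoting complex, had 3 counts in all 72 h embryos together, against 73.8, 93.1 and 109 CPM (lowest, median, highest) at 24 h. The ratio of 24 h to 72 h was 1410 (counting interval 481 to 6820), and its level at 48 h was 0.861 ± 0.33 CPM. Its annotated span on linkage group 1 (181 to 211962, minus strand) overlaps a gene on the opposite strand. LOC726969, named farnesyl pyrophosphate synthase-like after an enzyme of isoprenoid synthesis, had 0, 0 and 0.343 CPM at 72 h and 99, 114 and 139 CPM at 24 h. LOC413924, named glyceraldehyde-3-phosphate dehydrogenase 1-like after a glycolytic enzyme, had 0, 0.0783 and 0.413 CPM at 72 h and 39.7, 53.5 and 64.6 CPM at 24 h.

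Members of 2 sensory gene families were among the lost. Obp9, an odorant-binding protein gene on linkage group 15 (6768950 to 6769732, plus strand), had 0, 0.0572 and 0.275 CPM at 72 h, against 30, 35.7 and 40.5 CPM at 24 h. Gr7, a gustatory receptor gene on linkage group 9 (10274588 to 10278193, minus strand), had 0, 0.0572 and 0.413 CPM at 72 h, against 37.9, 51 and 73.2 CPM at 24 h. Both were thus present a day after laying and close to 0 late in embryogenesis. The uncharacterized LOC100578289 (linkage group 6, 17891304 to 17893519, plus strand) had 0, 0.305 and 0.413 CPM at 72 h, against 400, 459 and 480 CPM at 24 h. LOC100578553, on an unplaced scaffold, had 0, 0.261 and 0.446 CPM at 72 h, against 113, 134 and 150 CPM at 24 h. It had 5.75 ± 2.61 CPM at 48 h, the highest mean of the 7 named lost genes at that age.

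A few genes that fell without vanishing carried much of the 24 h RNA. LOC100578903, an uncharacterized gene named after its values were seen, held 1.34% of the counts at 72 h (0.534 to 3.4%) and 7.37% at 24 h (6.47 to 8.63%). tral (trailer hitch), an RNA-granule protein gene in Drosophila that was also named after its values were seen, held 1.06% of the counts at 24 h. LOC102654683, a further farnesyl pyrophosphate synthase-like gene, had 10.2, 16.8 and 32.9 CPM at 72 h, against 5850, 7530 and 9150 CPM at 24 h. It fell by 8.62 on the log2 scale (SE 0.20). As only reads with a single alignment were counted, genes with near-identical copies, such as these synthases and the histones below, may be counted in part.

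The genes of the germline and of maternal RNA control fell as a group. Of 34 tested members 21 were lower, 1 was higher and 10 were kept, with a median log2 change of -1.42, beside 32.4% higher, 25.6% lower and a median of 0.10 over all tested genes. The counts of every list below are to be read against these shares. With total counts the values over all 9010 tested genes were 3703 higher, 1595 lower and a median of 0.59. With upper-quartile scaling they were 3320, 1892 and 0.37. List values under another scaling are to be read against the all-gene values of that scaling. With total counts 15 of the germline list were lower and 3 higher, with a median of -0.93. The share of the counts held by this list was 0.535 to 0.607% at 72 h and 2.61 to 2.84% at 24 h. mael (maelstrom), which acts in the silencing of transposons by piRNAs, had 117, 130 and 187 CPM at 72 h, against 14000, 15700 and 18300 CPM at 24 h, and fell by 6.83 on the log2 scale (SE 0.16, adjusted p = 1.1e-15). It overlaps a gene on the opposite strand. The only member called higher was LOC413177, a subunit of the CCR4-NOT complex that removes poly(A) tails, with 96 ± 7.1 CPM at 72 h and 12 ± 2.34 CPM at 24 h.

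Further members of this list, named after their values were seen, fell to very different depths. exu (exuperantia), which localizes bicoid RNA in Drosophila, had a median of 4.11 CPM at 72 h and 619 CPM at 24 h. BicC (bicaudal C) had a median of 11.3 CPM at 72 h and 693 CPM at 24 h. vas (vasa), an RNA helicase of the germ line, had a median of 64.9 CPM at 72 h and 2140 CPM at 24 h, and aub (aubergine), a piRNA-binding protein, had 33.7 CPM at 72 h and 450 CPM at 24 h. The log2 changes of these genes ran from -7.26 for exu to -3.80 for aub. nanos, pum (pumilio), brat (brain tumor) and spn-E (spindle E), which also act in germ cells or in translational repression in Drosophila, were all kept within 2-fold. Their log2 changes were -0.40 for nanos, 0.68 for pum, 0.47 for brat and 0.50 for spn-E.

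**Figure D3:**
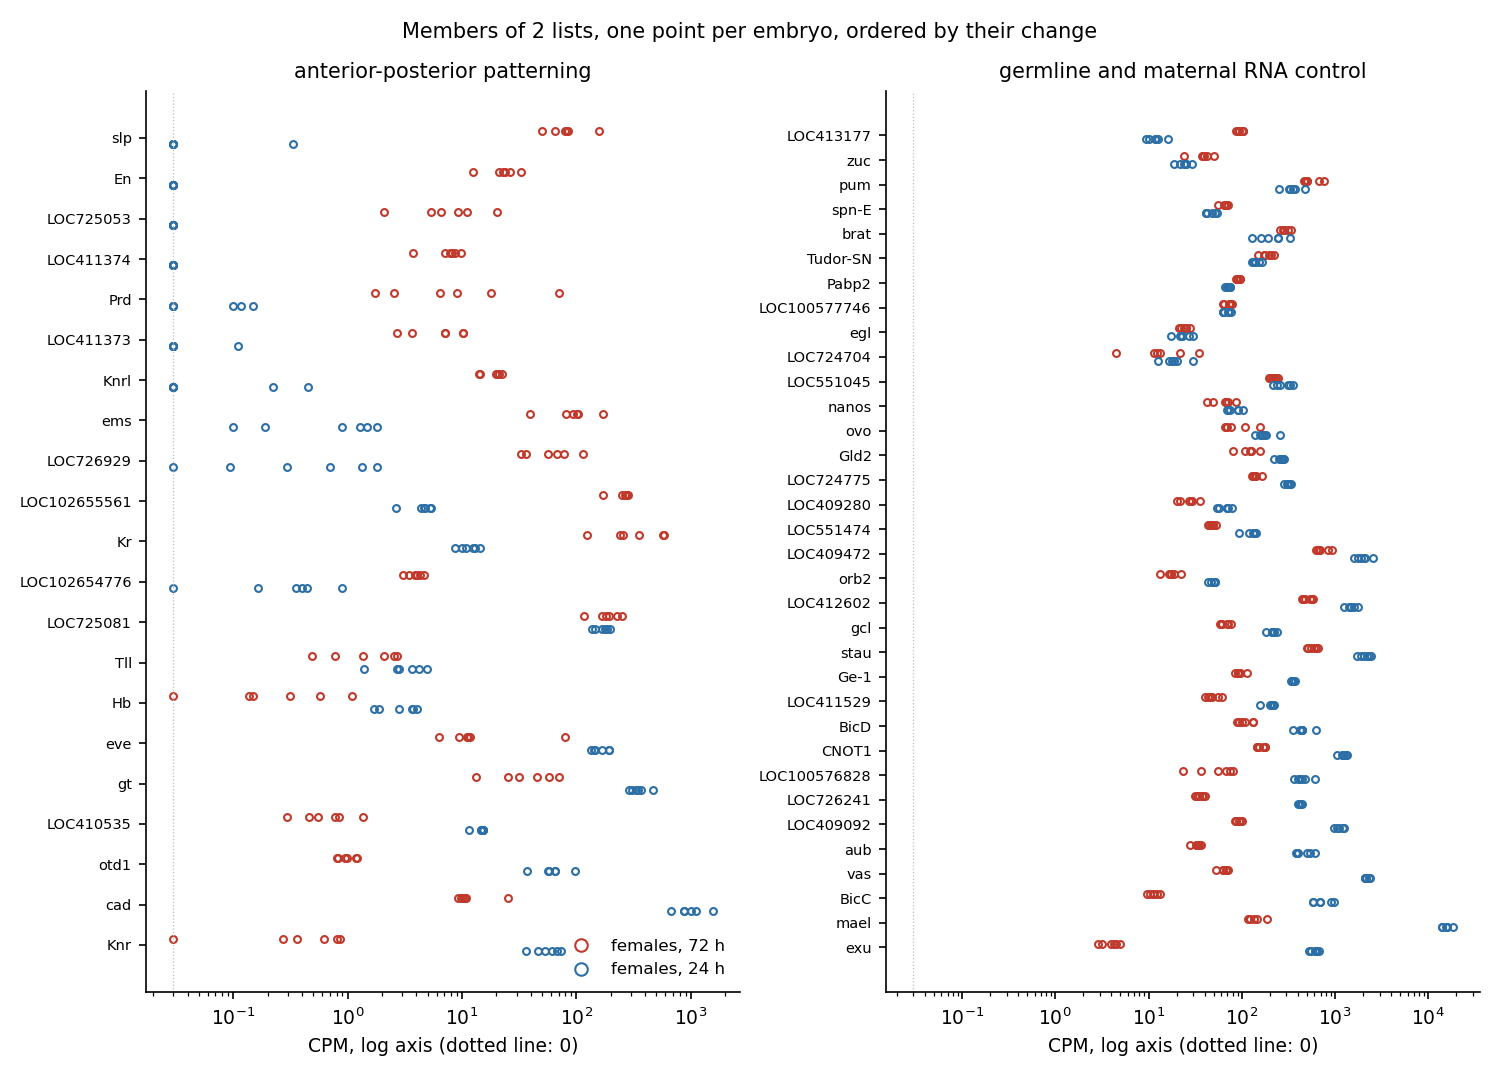
CPM (log axis, dotted line at 0) of the tested members of the anterior-posterior patterning list (left) and of the germline and maternal RNA control list (right), 1 point per female embryo, 72 h above 24 h in each row, ordered by log2 change. Patterning genes lie on both sides, with cad at 678 to 1560 CPM at 24 h, while most germline genes are lower at 72 h.

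Of 21 histone genes tested, 12 were lower (57.1%, beside 25.6% of all), 4 higher (19%, beside 32.4%) and 5 kept, with a median log2 change of -1.66. Neighbouring genes of the core and linker histones on linkage group 1, which package newly copied DNA, were among the lower ones. The libraries copied RNA from its poly(A) tail, so all histone values given here are those of tailed RNA. Whether the share of histone RNA with a tail changed was not tested. LOC102655073 (histone H4-like) had 68, 84.2 and 144 CPM at 72 h, against 7180, 8670 and 9540 CPM at 24 h. LOC726468 (histone H2A-like) had 74.2, 107 and 146 CPM at 72 h, against 3990, 4260 and 4670 CPM at 24 h. LOC100577833 (histone H1-like) had 581, 778 and 1260 CPM at 72 h, against 6120, 7180 and 8210 CPM at 24 h. The replacement histone gene LOC726692 (histone H3.3-like) went the opposite way, with 3620, 4610 and 6440 CPM at 72 h and 50.7, 70 and 94.1 CPM at 24 h, and it was already at 4540 ± 1040 CPM at 48 h. H3.3 histones are placed in chromatin also outside DNA replication. LOC552322, a histone H2A-like gene on linkage group 4, was kept, with a log2 change of 0.70 (SE 0.12) that passed 2-fold only when scaled to total counts (1.19).

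Of 72 tested genes of the cell cycle and DNA replication 24 were lower (33.3%, beside 25.6% of all), 11 higher (15.3%, beside 32.4%) and 26 kept. The balance of the counts depends on the scaling: 12 were lower and 18 higher with total counts, and 14 and 15 with upper-quartile scaling. The median log2 change was -0.37 with TMM and 0.11 with total counts. Under both it lay below the median of all tested genes (0.10 and 0.59). The lower ones include mitotic regulators: LOC102656846, a cyclin A-like gene, had 569, 622 and 879 CPM at 72 h, against 4160, 4700 and 6010 CPM at 24 h. polo and CycB3, a mitotic kinase and a mitotic cyclin named after their values were seen, fell by 2.33 (SE 0.12) and 3.00 (SE 0.10) on the log2 scale. The member called higher with most RPKM was LOC726277, a small subunit of the anaphase-promoting complex, with 28.6, 40.4 and 46.2 CPM at 72 h and 10.7, 13.9 and 14.8 CPM at 24 h. mus209 (PCNA, the sliding clamp of DNA polymerase) was kept, at a median of 275 CPM at 72 h and 287 CPM at 24 h.

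Of 50 heat shock and chaperone genes 16 were lower (32%, beside 25.6% of all), 7 higher (14%, beside 32.4%) and 24 kept. With total counts 10 were lower and 12 higher, and the median log2 change of -0.28 was 0.21. Under both scalings the list median lay below that of all tested genes (0.10 and 0.59). Hsp90, a chaperone of kinases and receptors, had 670, 805 and 980 CPM at 72 h, against 5890, 7800 and 8570 CPM at 24 h, and fell by 3.24 on the log2 scale (SE 0.12). LOC552531, the mitochondrial 10 kDa chaperonin-like gene, had 691, 790 and 970 CPM at 72 h, against 113, 139 and 176 CPM at 24 h. The chaperones of the cytosol and of mitochondria named here thus stood on opposite sides, at both queens (log2 changes of -3.30 and -3.21 for Hsp90 and of 2.23 and 2.77 for LOC552531).

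The cytosolic ribosomal proteins had the highest share of risen members of the lists, apart from the 3 genes of the mitochondrial genome. Of 78 tested members 77 were called higher and none lower, beside 32.4% higher over all tested genes, and the remaining one, RpL13, had a log2 change of 0.98 (SE 0.09), just under the threshold. The median was 2.68 on the log2 scale and 3.16 when scaled to total counts. Together the list took 13.7 to 16.1% of all counts at 72 h, 5.27 ± 0.668% at 48 h and 1.55 to 2.04% at 24 h. RpS30 had 5710, 6920 and 7170 CPM at 72 h, against 438, 538 and 649 CPM at 24 h. RpL37A had 2470, 3170 and 3610 CPM at 72 h, against 146, 171 and 189 CPM at 24 h, and RpS26 had 3630 ± 371 CPM at 72 h, against 449 ± 50.1 CPM at 24 h. LOC552272 (S23-like) and RpL40 followed, with log2 changes of 3.20 (SE 0.13) and 2.61 (SE 0.13), and the steepest member, RpL15, rose by 5.57 (SE 0.11). These proteins form the ribosome in equal numbers, but their log2 changes ran from 0.98 to 5.57 within the list. A scarce S19a-like copy, LOC410024, was new at 72 h, with a median of 1.79 CPM.

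Of 63 nuclear genes of oxidative phosphorylation, the respiratory chain and ATP synthase, 25 were higher (39.7%, beside 32.4% of all), 2 lower (3.17%) and 27 kept, with a median of 0.83. With total counts 37 were higher and 0 lower. LOC726222, subunit g of ATP synthase, had 1080, 1260 and 1590 CPM at 72 h, against 449, 538 and 687 CPM at 24 h. SdhA, the flavoprotein of succinate dehydrogenase, was one of those lower, with 47, 52.7 and 67.2 CPM at 72 h and 129, 138 and 155 CPM at 24 h, but its log2 change was -0.88 with total counts, short of the threshold. All 3 mitochondrially encoded genes of the tables were higher: ND2 had 16.4, 34.6 and 41.7 CPM at 72 h, against 6.23, 10.6 and 13.6 CPM at 24 h. Of 16 mitochondrial ribosomal proteins 7 were higher and 1 was lower. mRpS12 rose by 1.20 (SE 0.08) and LOC726151 (L49) fell by 1.38 on the log2 scale (SE 0.08), a change that was -0.90 when scaled to total counts, short of the threshold.

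Of 37 proteasome genes 15 were higher (40.5%), 2 lower (5.41%) and 16 kept. LOC551411, the maturation factor of the proteasome core, had 465, 532 and 799 CPM at 72 h, against 105, 128 and 152 CPM at 24 h. Rpn9, a subunit of its regulatory lid, fell by 1.07 on the log2 scale (SE 0.08), and the log2 change was -0.85 to -0.58 under 3 other scalings, past the threshold in none of them. Of 53 splicing genes 31 were kept (58.5%), beside 30.9% of all tested genes, with 7 higher and 5 lower. The higher count depends on the scaling: 21 were higher and 2 lower with total counts, and 14 and 4 with upper-quartile scaling. DebB (small nuclear ribonucleoprotein F) had 360, 415 and 446 CPM at 72 h, against 100, 142 and 161 CPM at 24 h, and Snrnp27 had 60.7, 79.6 and 87.1 CPM at 72 h, against 164, 190 and 210 CPM at 24 h, a fall whose log2 change was -0.80 with total counts, short of the threshold.

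Genes that pattern the anterior-posterior axis changed in both directions. Of 21 tested, 12 were higher (57.1%, beside 32.4% of all) and 8 lower (38.1%, beside 25.6%), and 7 of the higher ones were new at 72 h. Among the members that fell were namesakes of genes that act early in Drosophila, as maternal, gap or pair-rule genes. cad (caudal), which marks the posterior, had 9.25, 10.5 and 25.3 CPM at 72 h, against 678, 941 and 1560 CPM at 24 h, and fell by 6.34 on the log2 scale (SE 0.28, adjusted p = 1.63e-12). Its highest 72 h value was that of replicate 15 of queen 1, and the next was 10.9 CPM. Of the others, named after their values were seen, otd1 (orthodenticle 1) fell by 5.96 (SE 0.24), gt (giant) by 3.22 (SE 0.26), eve (even-skipped) by 3.10 (SE 0.49) and Hb (hunchback) by 2.85 (SE 0.50). For eve the 72 h level of replicate 15 of queen 1 was 79.8 CPM, against 6.26 to 11.8 CPM in the other 5 embryos of that age.

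The members that rose include segment-polarity genes, which hold the segment borders once they have formed. LOC102655561, named sonic hedgehog protein-like after the secreted signal, had 170, 268 and 281 CPM at 72 h, against 2.67, 4.71 and 5.31 CPM at 24 h. It was at 1.82 ± 2.03 CPM at 48 h, so that its rise fell between 48 and 72 h. En (engrailed) had a median of 23.5 CPM at 72 h and no count at 24 h, and slp (sloppy paired) had a median of 80.6 CPM at 72 h and 0 CPM at 24 h. Prd (paired), a pair-rule gene in Drosophila, had 1.72, 7.8 and 70.2 CPM at 72 h, a wide spread whose top is replicate 15 of queen 1. Kr (Krueppel), a gap gene in Drosophila, was higher and not lower, by 4.87 on the log2 scale (SE 0.29). Namesakes of early-acting genes thus stood on both sides.

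Of 52 homeobox genes, which give segments and organs their identity, 31 could be tested. Of these 23 were higher (74.2%, beside 32.4% of all), 3 lower (9.68%, beside 25.6%) and 5 kept, with a median log2 change of 3.01. In every list, genes near 0 at 24 h could pass the filter only through their 72 h level, which raises the share higher. Among the 23 homeobox genes called higher, 5 were new at 72 h. Abd-A (abdominal-A), a Hox gene of the abdomen, had 308, 364 and 681 CPM at 72 h, against 0.442, 1.08 and 1.2 CPM at 24 h, and rose by 8.77 (SE 0.26, adjusted p = 1.06e-14). It was not yet up at 48 h, at 0.448 ± 0.371 CPM, and the highest 72 h value was again that of replicate 15 of queen 1, with the next at 404 CPM. Among the other Hox genes, named after their values were seen, Dfd (Deformed) rose by 8.17 (SE 0.29), lab (labial) by 3.04 (SE 0.20), Ubx (Ultrabithorax) by 3.01 (SE 0.14) and Antp (Antennapedia) by 1.67 (SE 0.15). Scr (Sex combs reduced) was kept, with 0.23 (SE 0.17).

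**Figure D4:**
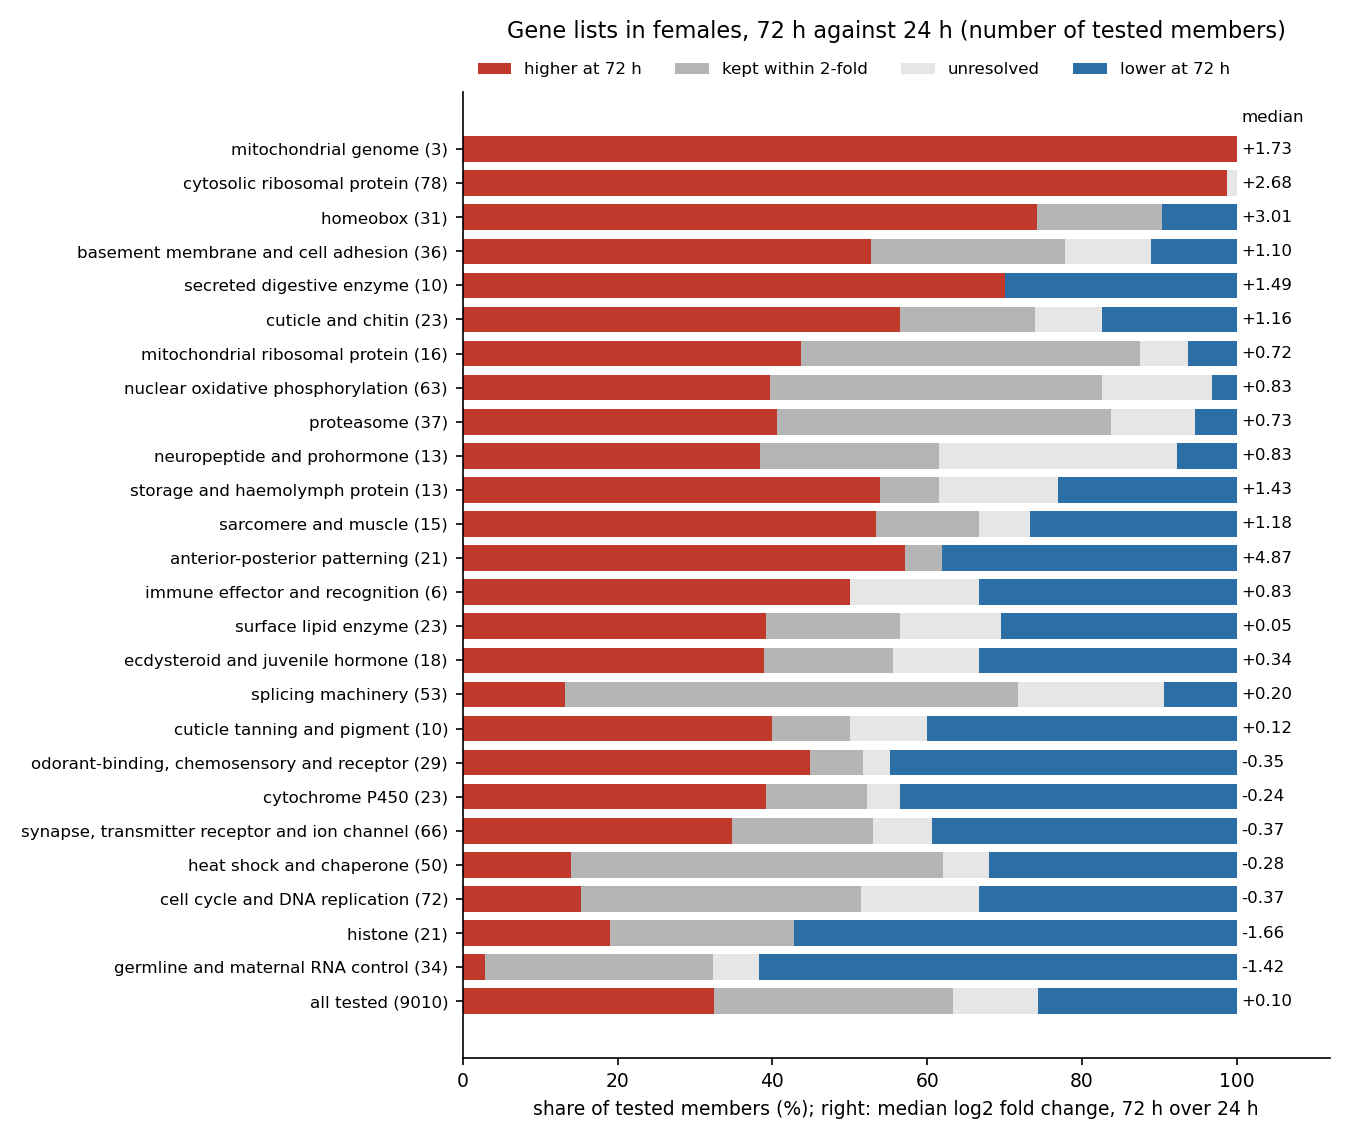
Share of the tested members of each gene list that were higher, kept within 2-fold, unresolved or lower at 72 h against 24 h in female embryos, with the number tested in parentheses and the median log2 change at the right, ordered by the share higher minus the share lower. The cytosolic ribosomal proteins are higher in 77 of 78 genes and the germline list is lower in 21 of 34, beside 32.4% higher and 25.6% lower over all tested genes in the lowest bar.

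Of the genes of basement membrane and cell adhesion 19 of 36 were higher (52.8%), 4 lower (11.1%) and 9 kept, with a median of 1.10. Fas1 (fasciclin 1), an adhesion protein of axons, had 147, 187 and 243 CPM at 72 h, 647 ± 70 CPM at 48 h and 0, 0.114 and 0.6 CPM at 24 h. LanA (laminin A), a basement membrane protein named after its values were seen, had a median of 57.1 CPM at 72 h and 0.283 CPM at 24 h, and ft (fat), a giant cadherin, 472 CPM at 72 h and 0.316 CPM at 24 h. BM-40-SPARC, a collagen-binding matrix protein, was lower by 1.39 on the log2 scale (SE 0.31), but its embryos overlapped, with 7.29, 19.3 and 48.5 CPM at 72 h and 45.3, 53.7 and 67.4 CPM at 24 h. Its log2 change was -0.61 in queen 2 alone and -0.90 with total counts, both short of the threshold.

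Of 31 sarcomere genes, 15 could be tested, of which 8 were higher (53.3%, beside 32.4% of all) and 4 lower (26.7%, near the 25.6% of all). TpnCI, a troponin C that makes contraction depend on calcium, had 211, 324 and 368 CPM at 72 h, 33 ± 8.07 CPM at 48 h and 7.35, 11.5 and 15.2 CPM at 24 h. A second troponin C gene, TpnCIIa, had 13.5, 17 and 26.3 CPM at 72 h, against 47.4, 58.9 and 68.5 CPM at 24 h, so that isoform genes of 1 family moved apart. Scp2 and Mlc2, a sarcoplasmic calcium-binding protein and a myosin light chain named after their values were seen, had medians of 29.3 and 6.96 CPM at 72 h, against 0 and 0.828 CPM at 24 h.

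Cuticle and chitin genes, which serve the larval skin, could be tested in 23 of 58 cases, of which 13 were higher (56.5%), 4 lower (17.4%) and 4 kept. CPF1, a structural cuticle protein, had 104, 169 and 262 CPM at 72 h, 399 ± 89.6 CPM at 48 h and 0.75, 1.92 and 2.54 CPM at 24 h. CPR13, of another family of cuticle proteins, fell, with 0.963, 1.28 and 2.53 CPM at 72 h and 83.7, 104 and 131 CPM at 24 h. Of 16 tanning and pigment genes 10 could be tested, of which 4 rose and 4 fell. Their median log2 change was 0.12, and -0.14 in queen 2 alone. LOC552811, a laccase-5-like gene named after the oxidases that harden cuticle, had 51.1, 57.1 and 78.8 CPM at 72 h, against 0.3, 0.834 and 1.39 CPM at 24 h. Y-y (yellow-y), of the yellow family, had 0, 0.175 and 0.298 CPM at 72 h, against 3, 3.58 and 6.1 CPM at 24 h.

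Of 66 tested genes for synapses, transmitter receptors and ion channels 23 were higher (34.8%, near the 32.4% of all genes) and 26 lower (39.4%, beside 25.6%), with a median log2 change of -0.37 that was 0.12 when scaled to total counts. The vesicular glutamate transporter-like gene LOC725462 had 138, 171 and 249 CPM at 72 h, 284 ± 92.1 CPM at 48 h and 25.4, 34.8 and 46.8 CPM at 24 h. The receptor subunit gene nAChRa3 had 15.3, 23.5 and 35 CPM at 72 h, 4.01 ± 2.41 CPM at 48 h and 186, 203 and 248 CPM at 24 h. Within its own family nAChRa9, nAChRb2 and nAChRa2, named after their values were seen, rose by 5.25 (SE 0.22), 5.09 (SE 0.47) and 5.65 (SE 0.61), the last being new at 72 h. Of 21 neuropeptide and prohormone genes 13 could be tested, of which 5 were higher and 1 lower. NPF (neuropeptide F), a feeding-related peptide, had 154, 233 and 338 CPM at 72 h, against 1.8, 3.72 and 6.93 CPM at 24 h, and LOC724564, a further neuropeptide gene, had 65, 80 and 90.7 CPM at 72 h, against 444, 472 and 483 CPM at 24 h.

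Sensory gene families could be tested in 29 of 137 genes, of which 13 were higher and 13 lower (44.8% each) and 2 kept, with a median log2 change of -0.35 that was 0.13 when scaled to total counts. Beside the new CSP6 stood Uvop, the ultraviolet opsin of the eye, with a median of 51 CPM at 72 h and 0.0553 CPM at 24 h, and CSP3, with a median of 14.4 CPM at 72 h and no count at 24 h, both named after their values were seen. Beside the lost Obp9 and Gr7 stood LOC410603, an odorant receptor 45a-like gene, with no count at 72 h and a median of 7.57 CPM at 24 h.

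Of 18 tested genes of ecdysteroid and juvenile hormone 7 were higher (38.9%) and 6 lower (33.3%), shares near those of all tested genes. Cyp314a1 (named shade in Drosophila), which makes the active 20-hydroxyecdysone, had 6.1, 7.52 and 14.1 CPM at 72 h, against 295, 412 and 594 CPM at 24 h. CYP302A1, an earlier step, had 29.9, 42 and 45.3 CPM at 72 h, against 10.4, 12.3 and 19.3 CPM at 24 h. Hr96, a nuclear receptor gene, fell by 2.79 on the log2 scale (SE 0.09), whereas Ecr, the ecdysone receptor itself, was kept at -0.24 (SE 0.08). Of 43 genes of the wider cytochrome P450 family 23 could be tested, of which 9 rose and 10 fell. Their median was -0.24, and it was 0.25 when scaled to total counts and 0.03 with upper-quartile scaling. CYP6AS4, of a family known for detoxification, had 21.4, 56 and 65.6 CPM at 72 h, against 0, 0.0824 and 0.3 CPM at 24 h.

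Smaller lists held single genes of note by the rule for named genes. Of 25 storage and blood proteins 13 could be tested, of which 7 were higher and 3 lower. Hex70a, a storage hexamerin, had 17.2, 19.1 and 22.2 CPM at 72 h, against 1.15, 1.84 and 3.21 CPM at 24 h. Its neighbour HEX70b had 4.81, 8.41 and 12.3 CPM at 72 h, against 21.6, 28.1 and 34 CPM at 24 h. Of 16 immune genes 6 could be tested, of which 3 were higher and 2 lower. PGRP-S3, a recognition protein for bacterial peptidoglycan, had 3.72, 5.68 and 7.67 CPM at 72 h, against 0, 0.0472 and 0.221 CPM at 24 h, and LOC726320, a serpin B3-like gene, had 4.54, 7.97 and 15.5 CPM at 72 h, against 44.8, 60.8 and 83.8 CPM at 24 h.

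Of 35 enzymes of surface lipids 23 could be tested. Of these 9 were higher (39.1%) and 7 lower (30.4%), shares near those of all tested genes. Their median was 0.05, and -0.14 in queen 2 alone. LOC726467, a fatty acid elongase-like gene, had 74.4 to 457 CPM at 72 h, a wide spread, against 0 to 0.442 CPM at 24 h. FAR1, a fatty acyl-CoA reductase, had 366, 471 and 626 CPM at 72 h, against 1960, 2210 and 2420 CPM at 24 h. Of 23 secreted digestive enzymes 10 could be tested, of which 7 were higher and 3 lower. None was lower with upper-quartile, total-count or RPKM-total scaling. The lipase 3-like gene LOC411353 had 36.6, 55.6 and 86.3 CPM at 72 h, against 13, 18 and 23.1 CPM at 24 h. The fall of a further lipase 3-like gene, LOC409999, was the weakest of the named changes (-1.16, SE 0.41, adjusted p = 0.0144). Its embryos overlapped, with 2.1, 17.4 and 45.3 CPM at 72 h and 30.1, 35 and 39.6 CPM at 24 h, and its change was -0.24 in queen 1 alone, -0.92 without the 72 h replicate 25 and -0.86 without the 72 h replicate 29 of queen 2, past the threshold in none of these.

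The kept genes with the highest RPKM were of several kinds. Sod1, which removes superoxide, had 975, 1160 and 1220 CPM at 72 h and 957, 1110 and 1270 CPM at 24 h, a log2 change of 0.02 (SE 0.09) whose sign was negative in queen 1 alone (-0.07). LOC725718, a cofilin that severs actin filaments, had 1990, 2280 and 2680 CPM at 72 h and 1860, 2020 and 2290 CPM at 24 h. LOC102655694, a glutathione S-transferase-like gene, changed by 0.15 (SE 0.12). Kept did not mean constant: this transferase had a median of 617 CPM at 48 h, against 1510 CPM at 72 h and 1390 CPM at 24 h. Ant, the ADP/ATP carrier of mitochondria, was likewise at 631 ± 104 CPM at 48 h, against 1400 ± 246 CPM at 72 h and 2320 ± 198 CPM at 24 h, and changed by -0.73 (SE 0.12).

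The classes differed in the kind of gene they held. lncRNA genes made up 32.7% of the new genes, 40.7% of the lost and 2.65% of the kept, beside 9.08% of all tested. The lncRNA share is set in part by the filter, which 818 of 2061 lncRNA genes and 8141 of 10150 coding genes passed, and which new genes could pass only through their 72 h level. Of 818 tested lncRNA genes 410 were higher (50.1%), 245 lower (30%) and 74 kept, against 2501, 2046 and 2701 of 8141 coding genes. Coding genes with no described product were 33.4% of the new coding genes, 28.6% of the lost and 17.4% of the kept, beside 21.7% of all tested coding genes. The median annotated span of coding genes was 5748 bases for the new, 5487 for all called lower and 3447 for the kept, beside 4140 for all tested, and the median exon length was 2309, 2721.5, 2088 and 2243 bases in the same order. A gene on the opposite strand overlapped 33.3% of the new, 32.2% of the lost and 32.6% of the kept genes. Counts of such genes are uncertain, since strand use is not stated. Besides cort and mael, the named genes with such an overlap are LOC409666, RpL40, LOC552811, Y-y, LOC725462, Fas1, CYP302A1, Hr96, cad, LOC726277, LOC726151, SdhA, DebB and Snrnp27.

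The 48 h female embryos entered none of the calls. In the medians of the classes that changed, which were formed from the other 2 ages, they lay in between. Other measures lay outside that range. The 10 genes with most counts held 17.2 to 21% of the counts at 48 h, above both other ages. The cytochrome P450 list held 0.0321 ± 0.00193% at 48 h, against 0.125 ± 0.00645% at 24 h and 0.0891 ± 0.0162% at 72 h. The median level of the new genes, as log2 of CPM plus 0.5, was -0.91 at 24 h, 1.85 at 48 h and 2.87 at 72 h. For the lost genes, in the same order of age, the medians were 3.47, -0.14 and -0.79, and for the genes otherwise lower 6.63, 4.69 and 4.55. The share of counts moved differently from the median: the genes otherwise lower held 61.7 to 64.7% of the counts at 24 h, 32.6 to 36.3% at 48 h and 15.5 to 17.1% at 72 h.

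Male embryos, which hatch from unfertilized eggs and are haploid, gave the same contrast from embryos of their own. Of 7605 genes 1542 were higher (20.3%) and 1689 lower (22.2%) at 72 h than at 24 h in males. The 72 h male libraries were far shallower, at 1195774 to 2008560 counts, and the gene counts were only 19.7 to 30.4% of the total behind their RPKM, against 61.8 to 69.6% in the 72 h females. By the interaction in edgeR, 3217 of 9404 genes changed more upward in females than in males (34.2%) and 2456 more downward (26.1%). Scaled to total counts these numbers were 5337 and 1321, and scaled to the RPKM totals 7006 and 674, so their balance depends on the scaling. With all 24 libraries thinned to 1195774 counts, 2512 and 2082 of 7597 genes were called, 2418 and 2029 of them the same genes.

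The new and lost genes were chosen on the female libraries, so a larger change in females is built into the choice, and their values in males are given as a description. Of the 483 new genes, 150 had more than 3 counts in any 72 h male embryo and 11 in every one. With the libraries thinned to the same total, 126 had more than 3 counts in any 72 h male embryo. Of the 59 lost genes, 31 had more than 3 counts in every 72 h male embryo. Obp9 had 0.0851 ± 0.11 CPM in 72 h and 35.5 ± 4.47 CPM in 24 h females, and 76.5 ± 11.3 CPM in 72 h and 32.8 ± 2.47 CPM in 24 h males. Gr7 had 35.7 ± 20.1 CPM in 72 h males and 42.7 ± 1.89 CPM in 24 h males, and cort had 34.2 ± 11.6 CPM in 72 h males and 77.3 ± 5.23 CPM in 24 h males.

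The larger gene lists also differed between the sexes. Ribosomal protein genes took 15.1 ± 0.924% of the counts in 72 h females, and 1.11 to 1.43% in 72 h males and 1.75 ± 0.119% in 24 h males. Of 78 such genes 73 changed more upward in females, beside 34.2% of all genes, and none more downward. By the RPKM totals 7006 genes in all changed more upward in females. The germline list held 0.579 ± 0.03% in 72 h females, against 3.25 ± 0.259% in 72 h males, and 24 of its 35 members changed more downward in females, beside 26.1% of all genes. Histone genes held 1.13 ± 0.119% in 72 h females and 2.89 ± 0.259% in 72 h males. Abd-A reached 407 ± 139 CPM in 72 h females and 9.4 ± 7.32 CPM in 72 h males, a difference of the log2 changes of 6.74 (adjusted p = 1.05e-13). No difference between the sexes was called for LOC552322 (0.13, adjusted p = 0.479) or for TpnCIIa, which fell by 1.65 in females and by 1.95 in males on the log2 scale.

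**Figure D5:**
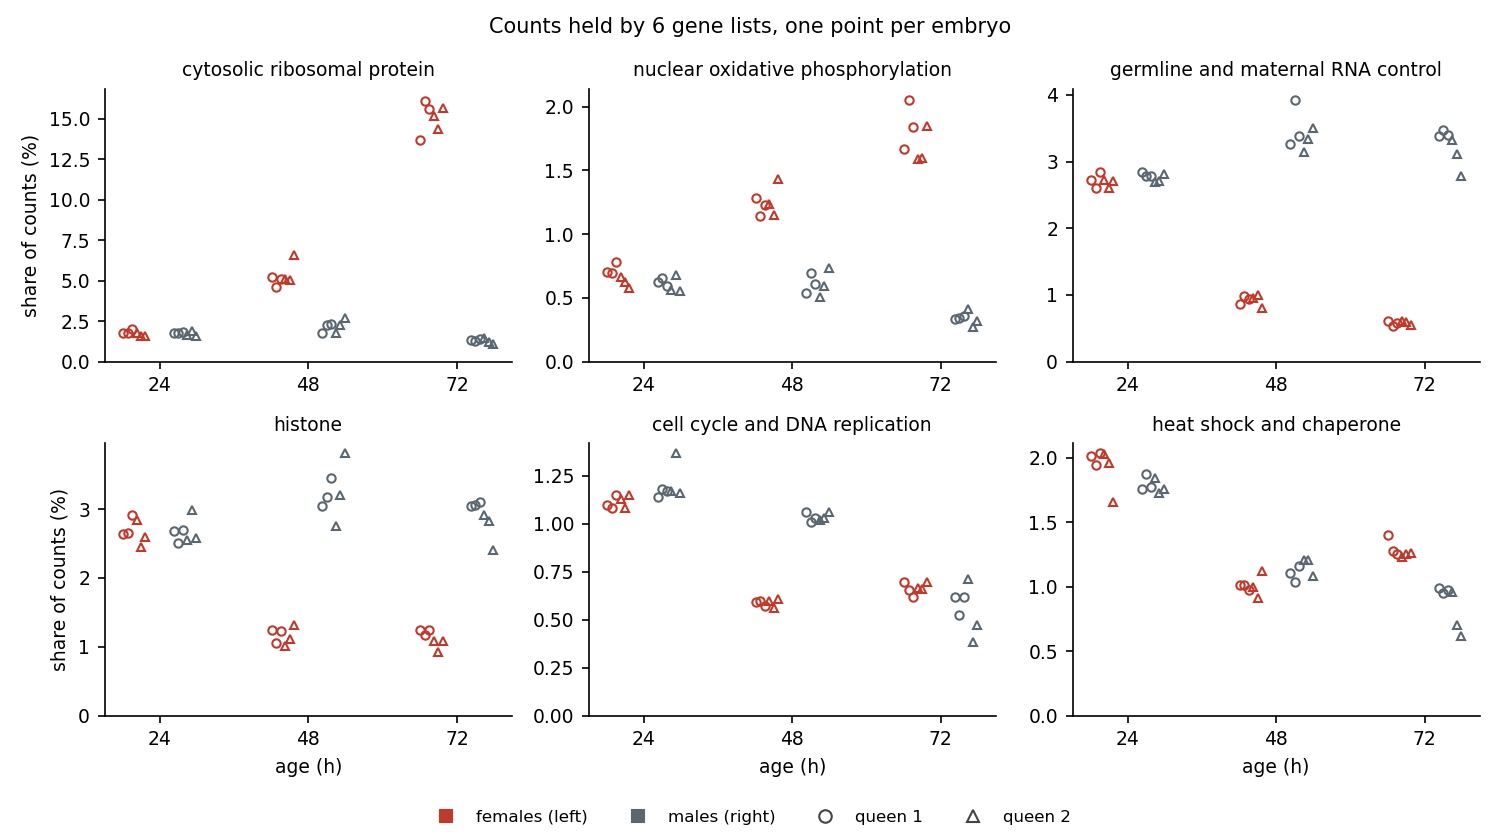
Share of an embryo's counts held by 6 gene lists at 24, 48 and 72 h, 1 point per embryo, females left and males right of each age. In females ribosomal protein genes climb to 15.1% and germline genes fall to 0.579% of the counts by 72 h, and in males these shares are 1.28% and 3.25% at 72 h. The 72 h male libraries hold 1195774 to 2008560 counts.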

How the data were processed

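cDNA of single embryos was made with the SMART-Seq v4 kit, which copies RNA from its poly(A) tail, amplified by PCR and T7 transcription, and sequenced on a NextSeq 500 (bcl2fastq 2.16.0.10, per the labels). Amplification without molecular identifiers means that counting intervals cover counting error only. The authors trimmed reads with cutadapt and the FASTX-Toolkit, aligned them with TopHat2 to Amel_4.5 and kept uniquely aligned reads. The deposited read counts per gene are raw, and the deposited RPKM values use a library total that is not stated. Coordinates are those of the annotation the authors deposited (NCBI Annotation Release 102, other values not used). The counting tool and its use of strand are not given in the sources used here. The laying window is 3 h in the methods and 2 h in the labels.

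All 36 columns of the tables were mapped to samples. The 12 female libraries of 24 and 72 h, with 5600680 to 12566958 counts each, were fitted with edgeR 4.0.16 (R 4.3.3) by the quasi-likelihood test with queen as a term, TMM factors, filterByExpr (minimum count 10, minimum total 15) and Benjamini-Hochberg adjustment over all tested genes. Calls needed an adjusted p under 0.05 and a log2 change beyond 1. CPM are TMM-scaled. Sexes were compared by the interaction of age and sex over 24 libraries. The fit was tested on simulated data.

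Named genes are, in each of 5 classes, the 5 described coding genes with the highest mean RPKM in the age where they are higher (both ages for kept genes), 1 per product name, for new and lost genes also the 2 highest without a described product, and in each gene list the highest member called in each direction. The members and lists were chosen with earlier results of these data known, and false matches of product names in the lists were corrected before their values were read. Alternatives were other scalings (DESeq2 1.42.0 size factors, upper quartile, total counts, RPKM totals), DESeq2's Wald test, edgeR's exact test, no filter, no queen term, each queen alone, 1 fit of all 36 embryos, thinned counts and each embryo left out.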

Additional observations from a re-analysis of the deposited data

Results flagged for a closer look

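Single embryos stood away from the other 5 of their group, by Dixon's criterion, in 8 of 150 groups of 6 values. Chance flags about 1 in 20 of the groups that can be flagged. Genes with at most 3 counts in every embryo of a group could not be flagged, so the share of 150 is not to be set against that rate. Replicate 15 of queen 1 accounted for 5 of the 8 flags, at 72 h. It had the highest cad level (25.3 CPM, next 10.9), the highest Abd-A level (681 CPM, next 404), the highest CPR13 level (2.53 CPM, next 1.37), the lowest level of the sonic hedgehog-like gene LOC102655561 (170 CPM, next 252) and the highest share of counts in the 10 leading genes (9.23%, next 7.05%). The remaining 72 h value was the lowest RpS26 level, 2920 CPM in replicate 14 of queen 1, with the next at 3540 CPM. At 24 h, CYP302A1 was highest in replicate 32 of queen 2 (19.3 CPM, next 13.5), and LOC102655561 was lowest in replicate 9 of queen 1 (2.67 CPM, next 4.34).

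For 6 named genes the change was called in opposite directions in the sexes, and the difference itself was called by the interaction in edgeR. The difference of the log2 changes, females minus males, was -9.58 for Obp9, -7.36 for Cyp314a1, -2.43 for BM-40-SPARC and -2.23 for Snrnp27, which fell in females and rose in males. With total counts the female falls of BM-40-SPARC (-0.90) and Snrnp27 (-0.80) were short of the threshold. It was 5.22 for LOC413177 and 5.28 for LOC552531, which rose in females and fell in males. The part of the shallower 72 h male libraries in these differences was not tested gene by gene.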

How the results depend on the processing

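No paired analysis was possible because each embryo was sampled at a single age. A replicate number found at both ages marks different embryos, and only queen is shared by the groups. Leaving out 1 embryo at a time gave 2945 to 3118 higher, 2268 to 2366 lower, 2671 to 2789 kept, 497 to 654 new and 59 to 80 lost genes. The other alternatives gave 2915 to 4283 higher, 1595 to 2628 lower and 2273 to 2830 kept genes. Absence was the least stable measure: new genes numbered 1708 without the filter, 743 in queen 1 alone, 735 in queen 2 alone, 739 in 1 fit of 36 embryos and 783 with a mean under 0.5 CPM, and lost genes 186 without the filter, 115 in queen 1, 100 in queen 2 and 142 with a mean under 0.5 CPM. The sex difference was 5337 and 1321 genes with total counts and 7006 and 674 with RPKM totals. The cause was not tested. Kept genes were not counted under the exact test, which gives no interval.

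Signs turned for values near 0. Sod1 was -0.04 without the filter, -0.07 in queen 1 and -0.06 to 0.06 without single embryos. With total counts the list medians were 0.12 (synapse), 0.13 (odorant), 0.25 (P450), 0.11 (cell cycle) and 0.21 (heat shock), and P450 was 0.03 with upper-quartile scaling. The median of all tested genes moved too, from 0.10 with TMM to 0.59 with total counts and 0.37 with upper-quartile scaling. Each of these list medians lay below the all-gene median of its own scaling. Tanning was -0.14 in queen 2 and -0.09 to 0.24 without single embryos, below 0 without the 72 h replicates 15 and 25. Surface lipid was -0.14 in queen 2 and -0.02 to 0.12 without single embryos, below 0 without the 24 h replicate 15. Of the named genes 16 values lost and 1 gained a call, and 1537 kept direction and call.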
